A study of Homo sapiens with 2 samples.

Results

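The RNAs described here are the small nucleolar RNAs (snoRNAs) that act in cleavage of the ribosomal RNA precursor: U3 (SNORD3A), U8 (SNORD118), U13 (SNORD13) and U17, which has a pair of genes (SNORA73A and SNORA73B). They were taken by gene symbol, whatever their values, from a table of 3576 non-coding RNAs, of which 274 are classed as snoRNA. The symbols were chosen with earlier results of these data known. Of the 5 symbols, 4 had 1 row each, and SNORD118 was not analysed here. The samples were A375 cells, an established human melanoma line. Their genotype is given as wild-type, and mutations of the line were not examined here. The cells received 8 Gy of ionizing radiation or were left as the 0 Gy control, and the time of harvest is unknown here. Each dose has 1 library, made from extracted total RNA with an mRNA-Seq kit. How fully such a kit recovers snoRNAs, and whether recovery was alike in both libraries, was not tested. No interval below covers a difference in recovery. The series asks how melanoma cells become resistant to radiation.

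For each RNA, the authors' deposited table gives the ratio of 1 library to the other (as log2), a p-value and a q-value, and no label ties either library to a dose. They are named here by their place in the ratio, numerator library and denominator library, and no value below has a direction relative to dose. There are no replicates, so every p and q is the authors' own and compares these libraries, not the doses. The fold changes fall on ratios of whole read numbers for 3535 of the 3576 RNAs, which gave the smallest pair of reads that each could come from. For a ratio that no pair up to 3000 gives, more than 3000 reads were assumed in the larger library. Each range in brackets is an exact (Clopper-Pearson) 95% interval on such reads and covers counting error only, since reads without molecular identifiers are not independent molecules. Reads per library in total are unknown here. Fewer cells that make an RNA and less of it per cell cannot be told apart. For the label, all 3 lncRNAs listed as melanoma markers were present in the authors' deposited table. Their log2 fold changes there were 0.13 for SAMMSON, a melanoma lineage RNA, 0.19 for CASC15 and -0.30 for BANCR. BANCR was at 0.815-fold (0.687 to 0.964), an interval below 1, although its p in the authors' deposited table was 0.660. Of the other lists, 0 of 3 blood markers, 1 of 3 fibroblast and endothelial markers (MIR503HG) and 2 of 2 epithelial markers (TINCR and LINC00511) were listed.

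As background, most snoRNAs guide methylation or pseudouridylation of ribosomal RNA, box C/D RNAs the first and box H/ACA RNAs the second. A few are instead needed for the cuts that free the mature rRNAs from the long precursor made in the nucleolus. U3 is a box C/D RNA that base-pairs with the precursor's leader and with the start of the small-subunit rRNA, and it is the RNA core of the small-subunit processome. U17 is a box H/ACA RNA whose yeast counterpart, snR30, is essential for making small-subunit rRNA. U13 is a box C/D RNA that pairs near the end of the small-subunit rRNA, where it guides acetylation, and U8 acts on the large-subunit side, as shown in frog oocytes. U3, U8 and U13 are transcribed from their own promoters, whereas U17 is cut from introns of its host transcript, SNHG3.

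The sequences of U3 and of both U17 genes are shown because their values turn on near-identical copies. They are the GENCODE 29 transcripts (GRCh38) that carry the RefSeq accessions of the table, and for all 16 RNAs looked up an entry was found. SNORD3A lies on the plus strand of chromosome 17 and both U17 genes on the plus strand of chromosome 1. In SNORD3A, 217 bases long, capitals mark the positions at which at least 1 of the other U3 genes in the table has another base. In the U17 pair, capitals mark the bases that differ or have no partner when the pair is aligned.
SNORD3A: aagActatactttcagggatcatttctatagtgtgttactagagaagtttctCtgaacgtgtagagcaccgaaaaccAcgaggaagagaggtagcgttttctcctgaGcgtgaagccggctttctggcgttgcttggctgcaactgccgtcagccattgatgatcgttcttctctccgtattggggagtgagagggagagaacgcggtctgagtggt
SNORA73A: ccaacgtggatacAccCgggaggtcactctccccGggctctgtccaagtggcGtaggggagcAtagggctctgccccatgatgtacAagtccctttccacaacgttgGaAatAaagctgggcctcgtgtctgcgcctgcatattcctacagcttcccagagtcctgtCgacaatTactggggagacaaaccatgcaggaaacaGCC
SNORA73B: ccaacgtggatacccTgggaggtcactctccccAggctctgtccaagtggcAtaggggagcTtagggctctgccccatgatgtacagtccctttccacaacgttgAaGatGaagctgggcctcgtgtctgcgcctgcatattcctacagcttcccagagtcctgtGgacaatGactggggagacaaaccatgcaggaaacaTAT

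The U3 genes are almost the same RNA. Counting from 1 at the 5′ end and with SNORD3A first, SNORD3B-1 and SNORD3B-2 each differ by A78C, SNORD3C by G108A, and SNORD3D by A4G, C53T and A78C. Each is thus at least 98.6% identical to SNORD3A, and SNORD3B-1 and SNORD3B-2 are identical to each other over all 217 bases. Reads that miss the differing positions cannot be given to 1 of these genes, and the sources used here do not say how the authors placed such reads. The motif TGATGA, which matches the core of box C, occurs once in SNORD3A, starting at position 158, and not on the other strand. It is in 55.1% of the 78 GENCODE snoRNA transcripts within 10% of that length. CTGA, the letters of box D, occurs 3 times on the RNA strand, the last at position 209, and in 87.2% of those transcripts. The copies differ from SNORD3A at none of the bases of TGATGA, and at 1 base within the CTGA that starts at position 53.

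Aligned over 206 columns, SNORA73A and SNORA73B have the same base in 192 (93.2%), with 12 substitutions and 2 unpaired bases. The letters ATATTCCTA and AAACCAT, the m1 and m2 elements conserved between U17 and snR30, occur once each in both RNAs and hold no differing base. Of the 79 GENCODE snoRNA transcripts within 10% of their length, 6.33% hold ATATTCCTA and 17.7% hold AAACCAT on the RNA strand, and neither motif is on the other strand of SNORA73A or SNORA73B. An ACA ends 3 bases before the 3′ end of both, as in box H/ACA RNAs, and in 6.33% of those 79 transcripts. No capital falls in that ACA, while the final 3 bases all differ. In GENCODE 29, SNORA73B lies within introns of all SNHG3 and RCC1 transcripts that span it (2 and 5). SNORA73A lies within introns of 5 spanning RCC1 transcripts and 2 of 3 spanning SNHG3 transcripts, and within an exon of the third. SNORD13 lies inside an exon of TTI2, a gene on the opposite strand. No other gene overlaps SNORD3A there. The strand setting of the counting is not given, so reads of SNORD13 and TTI2 may not be separated, and neither may reads of U17 and of unspliced SNHG3 or RCC1 RNA.

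SNORD3A was higher in the numerator library, both U17 RNAs were lower in it, and U13 stood near 1. By the q-values of the authors' deposited table, 3 of the 4 rows were under 0.05, and the share over all RNAs was 0.839% (30 of 3576), or 2.92% over the snoRNA class. Of the 3, 1 was higher in the numerator library, as were 0.503% of all RNAs, and 2 were lower, as were 0.336%. None of the 4 reached 2-fold, which 22.7% of all RNAs and 10.6% of snoRNAs did. At a ratio of 5 to 4 or more, either way, there were 3 of 4, against 61.5% of all RNAs and 51.8% of snoRNAs. The 3 low q-values come with many reads and modest ratios, but not every such row had a low q. SNORA48 stood at -0.48 (log2 fold change), from at least 1337 reads in the numerator library against 2043 in the denominator library. Its q in the authors' deposited table was 0.077. SNORA67, at -0.33 from at least 1326 reads against 1825, was not under 0.05 there either.

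The authors' deposited table gives SNORD3A (NR_006880.1) a log2 fold change of 0.45, or 1.37-fold (1.29 to 1.44), with p and q both listed as 0. A p of 0 is listed for 3 of the 3576 RNAs. No read pair up to 3000 gives this ratio, so more than 3000 reads of SNORD3A were assumed in the numerator library. The interval is the widest that this allows for independent reads. The row of SNORD3A thus differed between the libraries by more than counting error, and the interval of SNORD3D (1.03 to 1.56) also excludes 1. The intervals of SNORD3C, SNORD3B-2 and SNORD3B-1 include 1.

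The other U3 genes were spread below SNORD3A. For SNORD3D the authors' deposited table gives a log2 fold change of 0.34, from at least 197 reads in the numerator library against 171 in the denominator library, or 1.27-fold (1.03 to 1.56). SNORD3C stood at 0.26 there, from at least 247 reads in the numerator library against 226 in the denominator library, or 1.20-fold (0.998 to 1.44). Relative to SNORD3A, the fold change of SNORD3D was 0.926 times as large (0.745 to 1.15) and that of SNORD3C 0.878 times (0.725 to 1.07), both with exact conditional intervals that include 1. SNORD3B-2 stood at 0.04 in the authors' deposited table, from at least 359 reads in the numerator library against 383 in the denominator library, or 1.03-fold (0.889 to 1.19). SNORD3B-1 had -0.10 in the authors' deposited table, from at least 453 reads in the numerator library against 535 in the denominator library, or 0.930-fold (0.819 to 1.06). The fold change of SNORD3B-2 was 0.753 times that of SNORD3A (0.644 to 0.881) and that of SNORD3B-1 0.680 times (0.592 to 0.782), although each of these RNAs differs from SNORD3A at 1 base. The pair of SNORD3B genes, identical over the RNA, differed by 0.15 on the log2 scale, SNORD3B-1 at 0.903 times SNORD3B-2 (0.743 to 1.10). All 4 copies had q = 1 in the authors' deposited table. The value of any single U3 gene is therefore uncertain, and the part that shared reads play in the spread was not tested.

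SNORA73B (NR_004404.1) was the lowest of the 4, at -0.50 (log2 fold change) in the authors' deposited table, with p = 1.32e-56 and q = 1.22e-53. Its smallest read pair is 1286 reads in the numerator library against 2001 in the denominator library, which is 0.706-fold (0.658 to 0.758), or 1.42-fold lower. SNORA73A (NR_002907.2) stood at -0.34 in the authors' deposited table, with p = 5.29e-12 and q = 3.66e-09. It was at 0.789-fold (0.747 to 0.835), or 1.27-fold lower, on the assumption of more than 3000 reads in the denominator library. Both U17 genes thus lay on the same side. SNORA73B lay further from 1: its fold change was 0.894 times that of SNORA73A, with an exact conditional 95% interval on the same reads of 0.817 to 0.979. Given 93.2% identity, some reads may fit either gene.

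SNHG3 (NR_036473.1), the host transcript of both U17 RNAs, did not share their direction. The authors' deposited table gives it a log2 fold change of 0.18, with p = 0.688 and q = 1, from at least 405 reads in the numerator library against 392 in the denominator library. That is 1.13-fold, with an interval (0.985 to 1.31) that includes 1 and lies wholly above the intervals of SNORA73A and SNORA73B. Relative to SNHG3, the fold change of SNORA73A was 0.696 times as large (0.597 to 0.810) and that of SNORA73B 0.622 times (0.531 to 0.729). The host and the U17 RNAs therefore differed in ratio by more than counting error in these libraries. Whether the listed SNHG3 transcript keeps SNORA73A in an exon was not tested.

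For SNORD13 (NR_003041.1), the U13 RNA, the log2 fold change is 0.02 in the authors' deposited table, with p = 0.341 and q = 1. Its smallest read pair is 381 reads in the numerator library against 412 in the denominator library, or 1.02-fold (0.881 to 1.17). The interval includes 1, and it lies below that of SNORD3A and above those of both U17 RNAs. The fold change of SNORD13 was 0.743 times that of SNORD3A (0.638 to 0.865), whereas SNORD3B-2, at 1.03-fold, stood beside SNORD13.

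**Figure D1:**
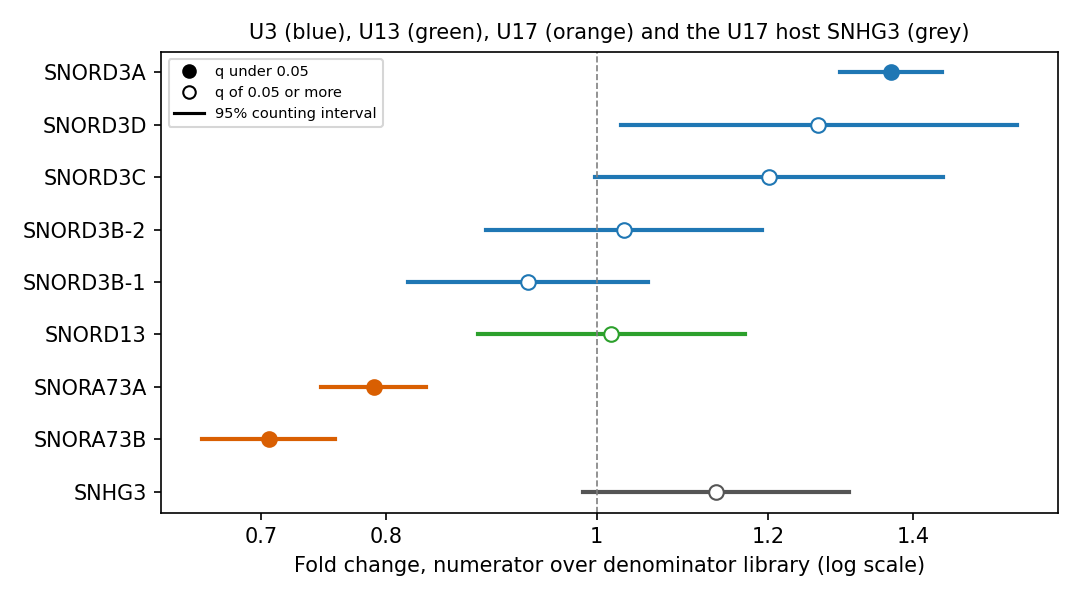
Fold change of the numerator over the denominator library on a log axis, for U3 (SNORD3A and 4 copies), U13 (SNORD13), U17 (SNORA73A and SNORA73B) and the host SNHG3. Points are the values of the authors' deposited table (filled where q is under 0.05) and lines are 95% counting intervals. SNORD3A at 1.37-fold lies right of 1, both U17 RNAs at 0.789-fold and 0.706-fold lie left of it, and SNORD13 at 1.02-fold lies on it.

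Set beside the snoRNAs as a class, SNORD3A and the U17 RNAs lay toward opposite sides without being extreme. The 274 snoRNA rows had a median log2 fold change of 0.0016, with 138 above 0 and 136 below, and the median over all RNAs was 0.16. Of the 274 rows, 53 were higher than SNORD3A, and 43 were lower than SNORA73B. SNORA73A had 66 rows below it, and SNORD13 had 127 above and 146 below. The class was also read over the 132 rows whose smallest pair holds at least 50 reads in 1 library, or that have no pair. Among these 132, 13 rows were higher than SNORD3A, 10 were lower than SNORA73B and 22 lower than SNORA73A. Among their own kinds, box C/D symbols (SNORD, 179 rows) had a median of 0.011 and box H/ACA symbols (SNORA, 95 rows) one of -0.049. Of the SNORD rows 42 lay above SNORD3A, and of the SNORA rows 14 lay below SNORA73B and 22 below SNORA73A.

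**Figure D2:**
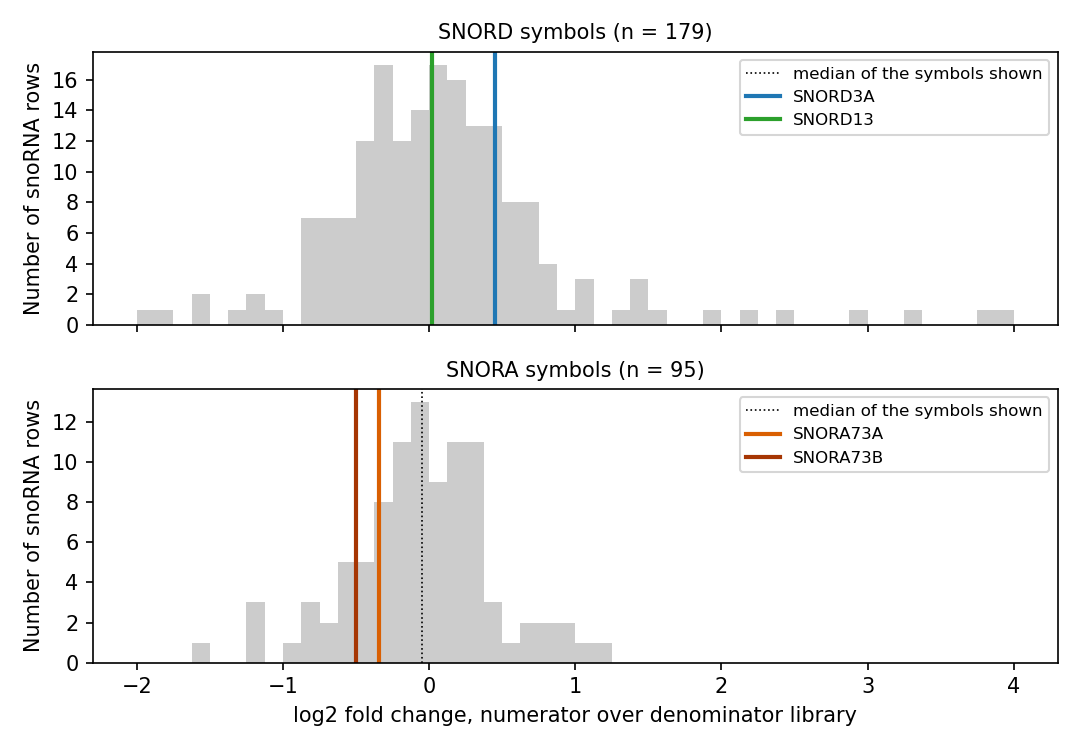
Number of snoRNA rows by log2 fold change (numerator over denominator library) for 179 SNORD symbols and 95 SNORA symbols, with coloured lines at the 4 RNAs and a dotted line at each median. SNORD3A at 0.45 lies in the upper part of its kind, SNORA73A at -0.34 and SNORA73B at -0.50 in the lower part of theirs, and SNORD13 at 0.02 beside the median.

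SNORD3A, SNORA73A and SNORA73B are 3 of the 8 snoRNA rows that the authors' deposited table lists with q under 0.05. Of the others, SNORD5 stood at 0.72 (log2 fold change) in the authors' deposited table, SNORA68 at 0.37, SNORA40 at 0.29 and SNORD15B at 0.10, whereas SNORD43 stood at -1.21. On the deposited scale, SNORD5 and SNORD43 thus stood further from 0 than any of the cleavage RNAs. Relative to the median of all RNAs, however, SNORD5 stood at 0.55, less far out than SNORA73B at -0.67. SNORD5 had at least 317 reads in the numerator library against 212 in the denominator library. SNORD43 had at least 57 in the numerator library against 145 in the denominator library. The snoRNA nearest in log2 fold change to SNORD3A was SNORD79, to SNORD13 SNORD133, to SNORA73A SNORD19 and to SNORA73B SNORD1A. These neighbours are alike in this 1 comparison, within 0.0026 on the log2 scale, and all 4 had q = 1 in the authors' deposited table. SNORD19, at -0.34 there, has a smallest pair of 23 reads in the numerator library against 32 in the denominator library. Its true reads may be any multiple of that pair, so its interval of 0.441 to 1.39 is the widest possible for independent reads.

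Other RNAs of precursor cleavage and small-subunit processing went both ways. Rows existed for 12 of 13 names; their median log2 fold change was -0.012, 6 lay above 0 and 6 below, and 1 had q under 0.05. That was RMRP, the RNA of RNase MRP, which cuts the first internal spacer of the precursor. The authors' deposited table gives it a log2 fold change of -0.22, with p = 1.83e-73 and q = 1.9e-70, or 0.857-fold (0.811 to 0.905), so it lay on the side of U17. U14, a box C/D RNA that pairs with the small-subunit rRNA and is essential for its processing in yeast, has 5 listed genes. Their median was -0.29, with 4 below 0, and all had q = 1 in the authors' deposited table. SNORD14A stood lowest of these at -0.41 there, or 0.751-fold (0.521 to 1.07), and SNORD14C highest at 0.01, or 1.01-fold (0.817 to 1.24). All 5 intervals of U14 include 1. SNORD14B has the smallest pair of these, 8 reads in the numerator library against 9 in the denominator library. Its true reads may be any multiple of that pair, so its interval for independent reads is at most 0.328 to 2.85. U22 (SNORD22), which takes part in making small-subunit rRNA in frog oocytes, stood at 0.17 in the authors' deposited table, or 1.13-fold (0.706 to 1.80). SNORA21, a box H/ACA RNA, stood at 0.26 there, or 1.20-fold, with an interval that includes 1.

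**Figure D3:**
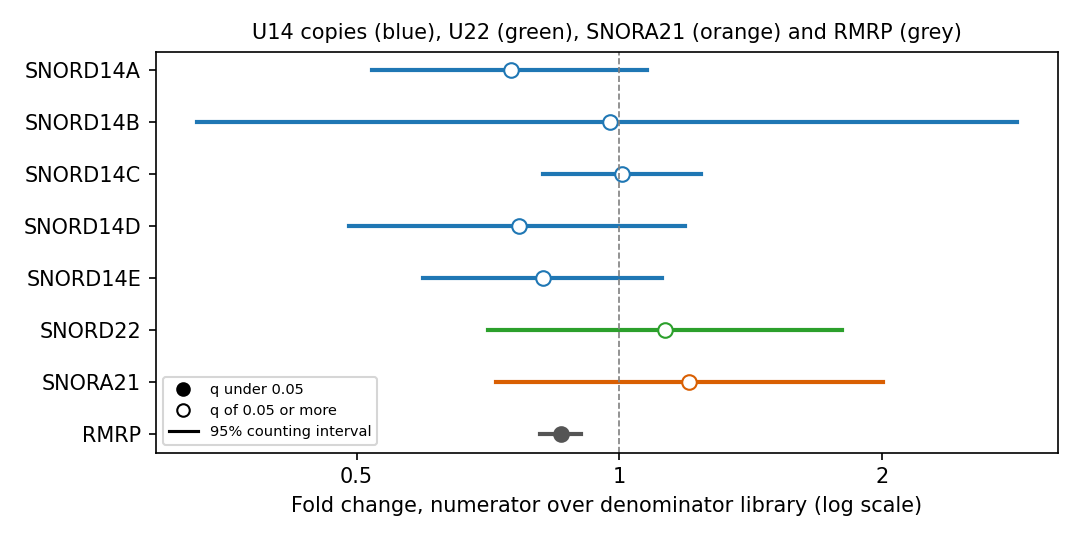
Fold change of the numerator over the denominator library on a log axis for the 5 U14 genes, U22 (SNORD22), SNORA21 and RMRP. Points are the values of the authors' deposited table (filled where q is under 0.05) and lines are 95% counting intervals. RMRP at 0.857-fold has an interval that lies below 1, and all the other 7 intervals include 1.

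Which direction a value has depends on the ratio taken as no change, and the table offers several. A log2 fold change of 0 is that of the deposited scale, equal read numbers fall at 0.14, and the median of all RNAs is 0.16. The highest deposited p-values lie near -0.13, the median of the 40 RNAs with the largest p, and RN7SK, an abundant RNA that restrains transcription elongation, stands at -0.27. SNORD3A stayed above 0 under all 6 choices, between 0.29 and 0.72. SNORA73B stayed below 0 under all 6, between -0.67 and -0.24, and so did SNORA73A, between -0.51 and -0.075. With RN7SK as the base, however, the counting interval of SNORA73A runs from -0.15 to 0.0061 and includes 0, before any error of RN7SK itself, and that of SNORD13 (0.085 to 0.49) does not include 0. For SNORD13 the sign changed: 4 choices put it above 0 and 2 below, between -0.14 and 0.29. The order of the 4 RNAs is the same under each choice, since a shift moves them together.

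**Figure D4:**
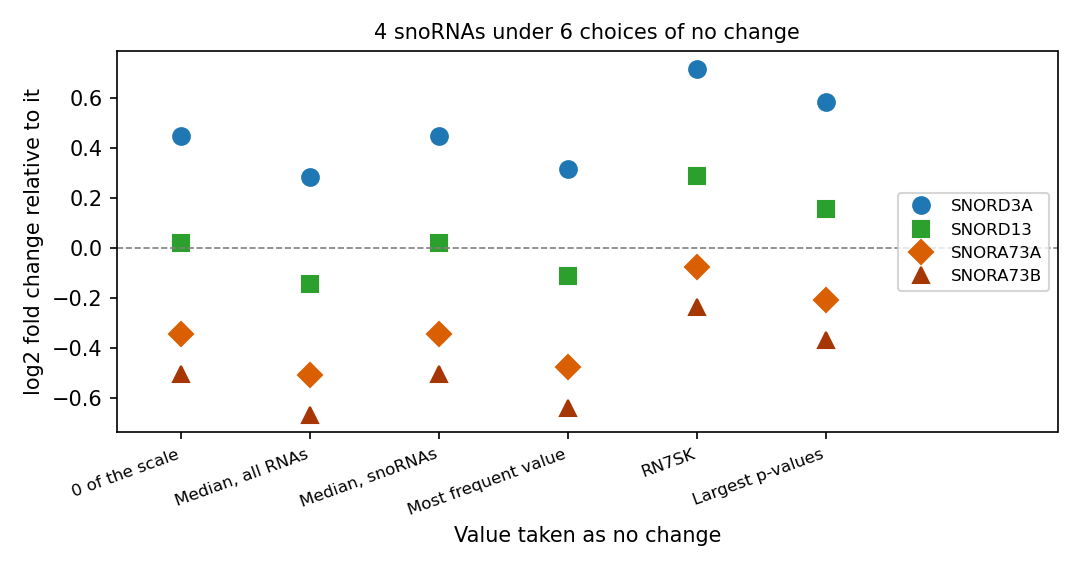
Log2 fold change of SNORD3A, SNORD13, SNORA73A and SNORA73B (numerator over denominator library) relative to 6 values that could stand for no change, given along the horizontal axis. SNORD3A lies above 0 throughout and both U17 RNAs below it, with SNORA73A reaching -0.075 where RN7SK is the base (counting interval -0.15 to 0.0061), and SNORD13 changes side.

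Other abundant structural RNAs show what low q-values look like in this table. Of 11 names, 10 were listed, between -0.27 and 0.69 on the log2 scale with a median of -0.043, and for 7 of the 10 the authors' deposited table gives q under 0.05. RPPH1, the RNA of RNase P, was the lowest at -0.27 there and RNY4, a Y RNA, the highest at 0.69. SNORD3A at 0.45 lies inside this range, but only RNY4 and RNY3 (0.50) stood above it, and the next was RNU6ATAC at 0.20. SNORA73A at -0.34 and SNORA73B at -0.50 lie below the lower end of the range. The counting interval of SNORA73A (-0.42 to -0.26) overlaps that of RPPH1 (-0.35 to -0.19), and that of SNORA73B (-0.60 to -0.40) does not. A low q could also come with a ratio near 1. RN7SL2 was at 0.951-fold (0.902 to 1.003) with q = 2.68e-88, and RNU4-1 at 0.991-fold (0.940 to 1.04) with q = 0.0051. RNU5A-1 was at 1.04-fold (0.990 to 1.10) with q = 0.0099. No read pair gives the ratios of RN7SL2, RNU4-1 and RNU5A-1, so their intervals rest on the assumed lower bound of reads. They are the widest possible for independent reads, and more reads could exclude 1. On the log2 scale these RNAs stood at -0.07, -0.01 and 0.06, whereas the highest deposited p-values lie near -0.13. A low q at such a ratio is thus not shown to be at odds with counting error. The other rows under 0.05, RN7SK, RN7SL1, RPPH1 and RNY4, had intervals that exclude 1.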

How the data were processed

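Per the labels' protocols, TransZol was used to extract total RNA and an mRNA-Seq kit to make the libraries. The submitters' processing notes name only the mouse build mm10, although cells and identifiers are human. The sources used here give no aligner, counting method, strand setting or test. The table deposited by the authors holds, per the file headers, log2 fold changes, p-values and q-values. Its 2 columns of per-sample values match no sample label and were not used here.

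Members and lists were chosen with earlier results of these data known. Taking the most frequent log2 fold change (0.14, 66 RNAs) as equal reads, each value was matched to a whole-number pair up to 3000, within a relative tolerance of 1.5e-09. No pair was found for 41. This step was checked on simulated data. The 6 choices of no change and a threshold at a ratio of 5 to 4 were alternatives, 1 of them (largest p-values) chosen after seeing the data. No test was run, because there is 1 library per dose. Named RNAs were the members, the lists in the text, snoRNAs with q under 0.05 and each member's nearest snoRNA in log2 fold change. SNORA48 and SNORA67 were added after the data were seen, as rows with reads and ratios like those of U17. TMEM107, SNORA21B and RNU2-2P were not analysed here. Coordinates were left out for want of a named human build. Sequences, overlaps and motifs came from GENCODE 29. Tools were biopython 1.88, matplotlib 3.10.9, numpy 2.4.6, pandas 2.3.3, Python 3.11.15 and scipy 1.17.1.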

Additional observations from a re-analysis of the deposited data

How the results depend on the processing

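Of 30 alternative values, 13 stayed within their counting interval or the tolerance set for counts and medians, and 17 moved beyond it; none of the 3 RNAs with q under 0.05 changed sign. With the median of all RNAs as no change the value was 0.29 for SNORD3A, -0.51 for SNORA73A and -0.67 for SNORA73B, and scaling to the most frequent value gave 0.32, -0.48 and -0.64, by subtraction. Scaling to RN7SK gave 0.72 for SNORD3A, 0.29 for SNORD13, -0.075 for SNORA73A (counting interval -0.15 to 0.0061, which includes 0) and -0.24 for SNORA73B. Scaling to the value where deposited p-values are largest, chosen after the data were seen, gave 0.59, -0.21 and -0.37 for SNORD3A, SNORA73A and SNORA73B. The count at 2-fold or more was 0 and became 3 at a ratio of 5 to 4. The median of the snoRNA class was 0.0080 where the smallest pair held 50 reads or more and -0.16 relative to all RNAs, and that of the other cleavage RNAs became -0.18. No values for SNORD118 were computed. No paired analysis was possible because each dose has 1 library. True depth per RNA is unknown, since a smallest pair is a lower bound. The intervals are thus the widest that the reads allow if taken as independent, and reads that are not independent would widen them.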
